A study of Mus musculus with 12 samples.

Results

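Most reads of a gene in a poly(A)-selected library fall on exons. In 200 of the 9328 protein-coding genes with enough reads a large share fell on introns instead, and in 115 of these the introns took most of the reads. The 200 genes were chosen from values measured in these libraries. Reads of the 6 unstimulated libraries were pooled, protein-coding genes with at least 500 pooled gene reads (exon plus intron reads) were kept, and the 200 with the highest intron share, that is intron reads as a percentage of gene reads, were taken. The high unstimulated share is therefore the choice itself and not a result. Levels are given as RPM, the exon or intron reads of a gene per 1000000 gene reads of its library.

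The cells were regulatory T cells (Treg) sorted from mouse spleen as RFP+CD4+ cells. CD18wt Treg came from mice with 2 unaltered alleles of the gene for CD18, the common subunit of the β2-integrins that is encoded by Itgb2. CD18Foxp3 Treg came from littermates in which a floxed CD18 gene was deleted by Cre under the Foxp3 promoter. The RFP reporter is switched on by the same Cre, and RFP+ cells were taken from both genotypes. The sort could therefore also hold cells that expressed Foxp3 earlier, which was not measured here. The CD18wt littermates also carried the Foxp3-driven Cre. All cells were kept overnight with 5 U/ml of recombinant human IL-2, and the stimulated ones also received anti-CD3 at 1 µg/ml and anti-CD28 at 2 µg/ml. Each of the 4 groups had 3 libraries, labelled as biological replicates, and the ages of the mice are not given in the sources used here.

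Introns are normally removed while a gene is still being copied, and the message is polyadenylated in the nucleus as its 3′ end is formed and then exported. Reads over introns can come from unspliced or partly spliced precursor, from a retained intron, from another gene or pseudogene lying within the intron, or from a transcript that starts at an unannotated site. After antigen receptor and CD28 signalling, Treg grow, enter the cell cycle and switch on genes such as Ctla4 (an inhibitory receptor for CD80 and CD86) and Il10 (an anti-inflammatory cytokine). Counts per gene do not show where within an intron a read lay.

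Each library held 11031565 to 20138261 gene reads, of which 3.32% to 5.99% were intronic. CD18wt unstimulated replicate 3 was the shallowest and had the lowest intron share, and CD18wt stimulated replicate 2, at 3.66%, was the next lowest. Of the 200 genes, 57 had their lowest intron share of the 6 unstimulated libraries in CD18wt unstimulated replicate 3 and 45 their highest, so values are also given without that library where it matters. The 10 Treg markers, Foxp3 and Il2ra among them, summed to 4263 to 7372 when exon reads were scaled to 1000000 exon reads, whereas 5 B cell markers summed to 4.27 to 18.1, 6 myeloid markers to 0.24 to 8.21, 5 erythroid markers to 0.0578 to 9.78 and 3 platelet markers to 0 to 0.873. The sum of 5 cytotoxic lymphocyte markers was 29.4 to 55, most of it from Nkg7 and Cd8b1, with Ncr1 at 0 in every library. The sum of 4 plasma cell markers was 70.8 to 180, nearly all from Xbp1 (69.7 to 83.9 without and 128 to 177 with stimulation), a factor that other secreting and activated cells use too. The part of such cells in the results was not tested. Itgb2 had 467 ± 32.2 exon RPM (SD, n = 3) in unstimulated CD18wt Treg and 260.3 ± 17.7 in unstimulated CD18Foxp3 Treg. After stimulation it had 310.2 ± 14.9 against 162 ± 32.2, without overlap of the genotypes in either condition. In the paper Cre removes exon 3 of this gene, whereas these counts cover all its exons. The paper reports the loss of CD18 protein on FOXP3+ cells by flow cytometry, so these RNA counts do not measure how complete the deletion was.

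Some sequences are shown because the results below return to them. The first are stretches of 3 of the 4 annotated pseudogenes in introns of Myo3a, the member with the highest intron count at a share of 100%. These 3 are copies of mitochondrial genes on the minus strand of chromosome 2. They were taken from the GENCODE M21 transcripts for GRCm38 and are written 5′ to 3′. Capitals mark the longest run identical to the mitochondrial gene. Gm13340 lies at chr2:22588103-22589647, Gm13341 at chr2:22587291-22587962 and Gm13339 at chr2:22590024-22590533.
Gm13340, bases 294 to 481 (mt-Co1): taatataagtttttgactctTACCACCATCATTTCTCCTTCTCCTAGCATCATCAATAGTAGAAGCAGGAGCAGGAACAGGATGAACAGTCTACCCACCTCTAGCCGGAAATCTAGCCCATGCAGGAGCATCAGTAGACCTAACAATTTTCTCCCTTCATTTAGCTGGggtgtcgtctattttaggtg
Gm13341, bases 38 to 250 (mt-Co2): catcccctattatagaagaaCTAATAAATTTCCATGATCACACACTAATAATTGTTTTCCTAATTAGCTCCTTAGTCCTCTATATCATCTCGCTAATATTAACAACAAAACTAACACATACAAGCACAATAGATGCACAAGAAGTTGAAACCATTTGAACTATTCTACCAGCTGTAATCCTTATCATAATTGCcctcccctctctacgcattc
Gm13339, bases 314 to 482 (mt-Nd2): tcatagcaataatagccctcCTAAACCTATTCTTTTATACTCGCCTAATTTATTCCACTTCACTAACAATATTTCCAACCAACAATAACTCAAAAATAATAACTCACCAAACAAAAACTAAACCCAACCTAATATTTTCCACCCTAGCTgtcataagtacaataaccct
The shared runs were 148 bases for Gm13340 and mt-Co1, 173 for Gm13341 and mt-Co2 and 129 for Gm13339 and mt-Nd2, all longer than a read of 59 bases.

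The second set are the 250 bases before the start of Nr4a2 and of Ctla4, members of the list of activation-induced genes whose exon reads rose on stimulation. Both are from RefSeq on GRCm38.p6, written 5′ to 3′ on the strand of the gene. Capitals mark matches, on either strand, to TGACG from the cyclic AMP response element. They also mark the core of the NFAT binding site, written GGAAA. The third motif marked is a TATA box, searched as TATAAA. The marked matches do not overlap each other.
Nr4a2, chr2:57124004-57124253, minus strand: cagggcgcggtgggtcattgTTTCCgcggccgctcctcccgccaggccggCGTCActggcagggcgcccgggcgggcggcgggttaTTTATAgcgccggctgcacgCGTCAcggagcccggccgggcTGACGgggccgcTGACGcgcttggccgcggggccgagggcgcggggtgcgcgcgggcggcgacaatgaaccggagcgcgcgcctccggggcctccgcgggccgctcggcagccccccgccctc
Ctla4, chr1:60908775-60909024, plus strand: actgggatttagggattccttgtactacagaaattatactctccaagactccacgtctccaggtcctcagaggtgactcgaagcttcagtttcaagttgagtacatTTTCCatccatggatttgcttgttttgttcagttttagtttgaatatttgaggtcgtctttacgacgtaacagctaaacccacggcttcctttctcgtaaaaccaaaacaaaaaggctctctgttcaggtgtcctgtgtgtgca
The Nr4a2 window held 4 matches to the first motif, 1 to the NFAT core and 1 TATA box, and the Ctla4 window held 1 NFAT core. Of 180 such windows matched to 140 of the members, 17.8% held the first motif, 62.2% the NFAT core and 8.89% the TATA box. The shares over the 9510 windows of all genes with enough reads were 28.5%, 54.2% and 5.93%, and over all 32851 windows they were 17.8%, 55.6% and 12.4%. A match is only a string of letters, and binding was not measured here. The files' Ctla4 row starts at 60887000, upstream of the RefSeq start, so the Ctla4 window lies inside the gene as the files count it.

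The shares of the members ran from 100% down to 37.8%, with a median of 53.7%, whereas the median over the 9328 genes was 4.62%. There were 10 members with no exon read in the pooled unstimulated libraries, and 23 with a share of 95% or more. At the lower boundary stood Ldlrad4 at 37.82% and Ctla4 at 37.75%, and just outside it Cd80 at 37.70%, Gnb1l at 37.64% and Arl15 at 37.63%, so membership near the boundary turns on a few reads. Ranking the 3 CD18wt or the 3 CD18Foxp3 libraries alone returned 181 and 182 of the members. With a minimum of 1000 pooled reads 140 remained.

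**Figure D1:**
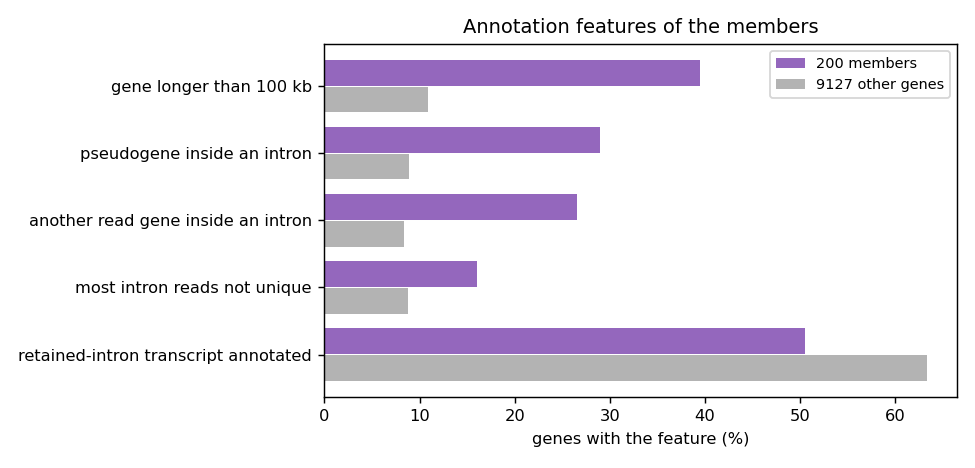
The bars give the percentage of genes with each annotation feature among the 200 members (purple) and among the 9127 other protein-coding genes with at least 500 pooled reads (grey). Long genes, pseudogenes in introns, other read genes in introns and intron reads that were not unique were more frequent among the members, and annotated retained-intron transcripts less frequent.

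Members were long genes and often enclosed other sequences. Their median length was 73312 bases against 23965 for the other genes, and 39.5% against 10.9% exceeded 100000 bases. An annotated pseudogene lay within an intron of 58 members (29.0%, against 8.84% of the others), and another gene with enough reads of its own lay there in 53 (26.5%, against 8.36%). One or both were present in 95 members (47.5%, against 16.3%). Between 100000 and 500000 bases of length, 49.2% of 63 members and 32.5% of 965 others enclosed a pseudogene. Exon reads per kilobase of exon were a median of 152 in the members and 851 in the others. Intron reads per kilobase of intron were 16.5 and 9.67. Both densities use the unstimulated reads that chose the members, so these differences are in part the choice itself. Most intron reads were not uniquely placed in 32 members (16.0%, against 8.77%), and a retained-intron transcript was annotated in 50.5% of members and 63.4% of the others. These are descriptions of a chosen list, and no test was made.

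The member with the most intron reads among those at 100% was Myo3a, a motor protein of sensory hair cells (chromosome 2, 22227503 to 22618252, plus strand). It had no exon read in any unstimulated library and 1 in the stimulated ones. Its intron RPM were 273, 252 and 283 in unstimulated CD18wt Treg and 119, 126 and 95 after stimulation. In CD18Foxp3 Treg they were 225, 230 and 212 before and 146, 97.7 and 94.8 after. Every stimulated library was below every unstimulated one of its genotype, and the fitted log2 changes were −1.80 ± 0.39 (SE, adjusted p = 0.0046) in CD18wt and −1.51 ± 0.14 (adjusted p = 2.9e-13) in CD18Foxp3 Treg.

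Of the mitochondrial genes whose copies lie in Myo3a introns, mt-Co1 and mt-Co2 encode subunits of cytochrome c oxidase and mt-Nd2 a subunit of complex I. In CD18wt Treg, mt-Co1 had 13595 ± 2248 exon RPM without and 6482 ± 1495 with stimulation (SD, n = 3). The corresponding values of mt-Co2 were 4597 ± 145 and 2397 ± 462, and those of mt-Nd2 were 1020 ± 262 and 972 ± 182, a difference smaller than the SD. Of all 59-base words of the 3 pseudogenes, 22.5%, 30.6% and 15.7% occurred in the transcript of the corresponding mitochondrial gene. The files gave 100% of the Myo3a intron reads as uniquely placed. Which bases these reads covered was not analysed here, and the part of the mitochondrial sequences in the result was not tested.

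Sntg1, a syntrophin, was next, at 128, 84.5 and 111 intron RPM in unstimulated and 89.2, 79.3 and 74.3 in stimulated CD18wt Treg. Its introns hold 7 annotated pseudogenes. One of them is Gm15452, a processed pseudogene of which 100% of the 59-base words occur in Cks2, a cell cycle protein. Cks2 had 7.74 ± 1.01 exon RPM in unstimulated and 46.9 ± 3.89 in stimulated CD18wt Treg. The part of Cks2 sequence in the Sntg1 intron reads was not tested. Sntg1 intron reads had a fitted log2 change of −1.57 ± 0.15 in CD18Foxp3 Treg (adjusted p = 4.7e-13) and −1.0 ± 0.36 in CD18wt Treg, where it missed the threshold (adjusted p = 0.062).

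Other members enclosed copies of highly expressed genes. Il31ra, a cytokine receptor subunit, encloses Gm3226, with 56.9% of its 59-base words in Tuba1b, an α-tubulin. Aff2, a nuclear protein gene on the X chromosome, encloses Gm8172, with 58.7% in Rps6, a ribosomal protein. Intron reads of Aff2 were 10.7 ± 1.79 and 7.66 ± 0.196 RPM in CD18wt Treg and amounted to between 0.285% and 0.555% of the exon reads of Rps6 in the 12 libraries. Adgrd1, an adhesion G protein-coupled receptor that had exon reads as well, encloses Rps16-ps2, all of whose words occur in Rps16, and its intron reads were 0.153% to 0.323% of those over Rps16 exons. Slc7a15, a member of an amino acid transporter family at 7.14 ± 1.24 and 3.64 ± 0.367 intron RPM in CD18wt Treg, had neither kind of neighbour, and nor did Gm10271 or Tdrd9, a germline RNA helicase.

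Other members enclosed active genes. Patl2, with 2397 intron and 18 exon reads in the pooled unstimulated libraries, spans B2m on the opposite strand, the light chain of class I MHC, which had 332756 gene reads. Mef2b, with 2556 intron and 44 exon reads, contains Borcs8 on the same strand, with 3582 reads. Fgfr2 and Gm20388 are rows of 2960900 and 4434882 bases that enclose many genes, Cox4i1 with 36356 reads among them in Gm20388. Filip1l and Cmss1, both members, lie in each other's introns on opposite strands, and 0.0% and 1.2% of their intron reads were uniquely placed, so their intron reads cannot be told apart. Whether the libraries kept the strand is not stated in the sources used here.

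Not every member had such a neighbour. In 91 members neither a pseudogene nor another read gene lay in an intron and most intron reads were unique, and their median share was 47.2%. Camk2b, a calcium and calmodulin dependent kinase subunit best known from neurons, was the most read of these. It had 46392 intron and 2128 exon reads in the pooled unstimulated libraries, with 94.8% of intron reads unique. Its intron RPM were 490, 371 and 409 in unstimulated and 349, 307 and 499 in stimulated CD18wt Treg, and 265, 742 and 493 against 207, 714 and 436 in CD18Foxp3 Treg. Its groups overlapped in intron reads, but its exon reads were 17.7 ± 3.89 and 6.41 ± 0.297 RPM in CD18wt Treg (log2 change −1.65 ± 0.24, adjusted p = 8.5e-05) and 24.7 ± 10.8 and 6.22 ± 3.77 in CD18Foxp3 Treg (−2.16 ± 0.47, adjusted p = 0.0037).

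**Figure D2:**
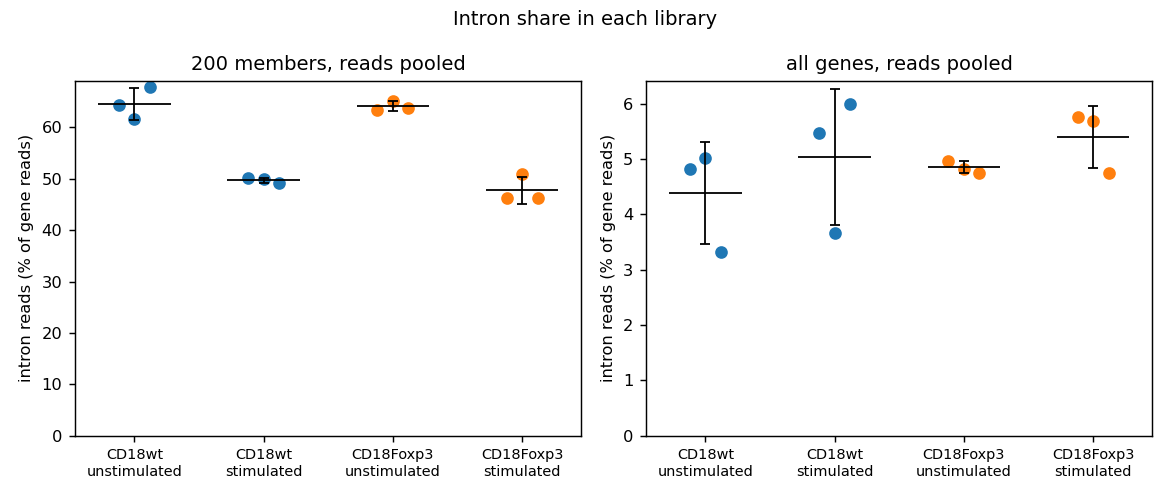
Points are the 12 libraries by group, and lines and error bars give the mean and SD of 3 libraries. Left, intron reads as a percentage of gene reads over the 200 members, which were 61.6% to 67.9% in unstimulated and 46.2% to 50.9% in stimulated libraries. Right, the same over all genes, on its own scale.

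Pooled over the members, the intron share was lower in every stimulated library than in every unstimulated one. It was 61.6% to 67.9% in the 6 unstimulated and 46.2% to 50.9% in the 6 stimulated libraries. The members gave 9.26% to 14.5% of all intron reads in unstimulated and 6.17% to 8.64% in stimulated libraries. The median of the members' shares hardly moved, from 53.7% to 53.0% pooled, and 117 members had a lower, 79 a higher and 4 the same share after stimulation. Over all genes, intron reads were 3.32% to 5.02% of gene reads in unstimulated and 3.66% to 5.99% in stimulated libraries, ranges that overlap. Since the unstimulated libraries chose the members, a lower value elsewhere is in part what the choice gives. The size of the drop in this share was not measured apart from the choice. Changes in reads and in their ratio were therefore also counted for genes ranked in the other genotype alone.

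**Figure D3:**
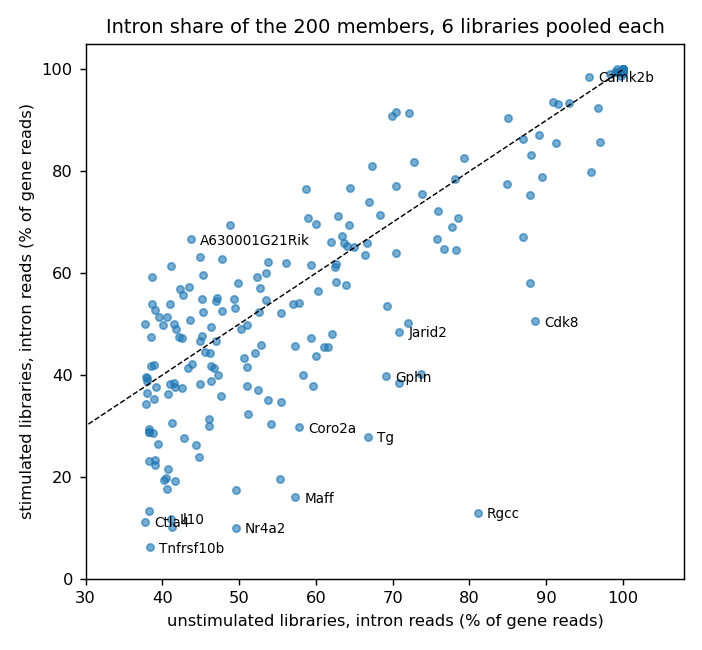
Each of the 200 points is a member, placed by its intron share in the 6 pooled unstimulated libraries (x axis, %) and in the 6 pooled stimulated libraries (y axis, %), with equality as a dashed line. Below the line lie 117 members, with Rgcc (81.1% to 12.9%) farthest from it, and above it 79.

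The first comparison asked how the intron reads of these genes changed on stimulation. A gene was called where its fold change was at least 1.5 and its edgeR adjusted p at most 0.01. Of the 200 genes ranked in the CD18wt libraries alone, 93 fell and 10 rose in intron reads in CD18Foxp3 Treg, where 15.4% of all 10260 genes tested fell and 15% rose, and 16.4% and 10.4% of the protein-coding genes with the minimum of reads. Of the 200 ranked in the CD18Foxp3 libraries alone, 44 fell and 3 rose in CD18wt Treg, where 5.09% of 9492 genes fell and 2.71% rose, and 5.1% and 2.13% of the protein-coding genes with the minimum of reads. The medians of the log2 changes were −0.64 and −0.83, against 0.04 and 0.05 over all genes. For the 200 members themselves the counts were 99 lower and 8 higher in CD18Foxp3 and 48 lower and 3 higher in CD18wt Treg. Of the 91 members with neither kind of neighbour and mostly unique reads, 49 were lower and 4 higher in CD18Foxp3 and 27 lower and 2 higher in CD18wt Treg. The counts of the members and of these 91 are a description, since the same unstimulated libraries chose them. For the 91, the share over other genes with the same restriction is not given here.

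These intron fits were scaled on intron reads. Scaled by the exon library sizes instead, the median log2 change over all genes became 0.40 in CD18Foxp3 and 0.43 in CD18wt Treg, and 72 members were lower and 19 higher in CD18Foxp3 (8.83% and 23.1% of all genes) and 10 lower and none higher in CD18wt Treg (0.832% and 1.23%). The medians of the members were −0.40 and −0.46 on that scale. Counts and medians of the members on that scale are a description, since the unstimulated libraries chose the members. Dependence on single libraries was larger in CD18wt Treg, where the 51 calls in intron reads became 9 without stimulated replicate 3, 16 without stimulated replicate 1, 23 without stimulated replicate 2 and 31 without unstimulated replicate 1, in each case with the direction kept. Among the genes described here, the intron calls of Myo3a, Slc7a15, Rgcc, Maff, Coro2a, Prkcb, Rad51b, Slc20a2 and A630089N07Rik in CD18wt Treg were lost without 1 or other of the libraries, and those of Ccnd3, Chd9, Rab3ip, Filip1l and Nlrp1b were kept. In CD18Foxp3 Treg the exon calls of Camk2b, Chd9 and Jarid2, the intron call of Aff2 and the ratio calls of Ccnd3, Chd9, Adgrd1 and Maff were lost in the same way, and the 107 intron calls stayed between 96 and 106. In 44 members the fall passed in both genotypes, as did the rise in 2, which were A630089N07Rik and Rad51b. The share of all genes called in both genotypes is not given here, so these counts are not read as an excess.

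Exon reads of the members moved in both directions, at about the rate of other genes. Of the 200 genes ranked in CD18wt libraries, 176 had enough exon reads in CD18Foxp3 Treg, and 33 rose and 31 fell, where 20.9% of all genes rose and 17.6% fell, and 20.7% and 19.8% of the protein-coding genes with the minimum of reads. Of the 200 ranked in CD18Foxp3 libraries, 175 were tested in CD18wt Treg, and 25 rose and 28 fell (18.7% and 14.9% of all genes, and 19.2% and 17.5% of the protein-coding genes with the minimum of reads). Among the members, 178 and 177 were tested, with 26 higher and 28 lower in CD18wt and 31 higher and 33 lower in CD18Foxp3 Treg. The rise passed in both genotypes for 21 and the fall for 23, again without a share of all genes to set them against.

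**Figure D4:**
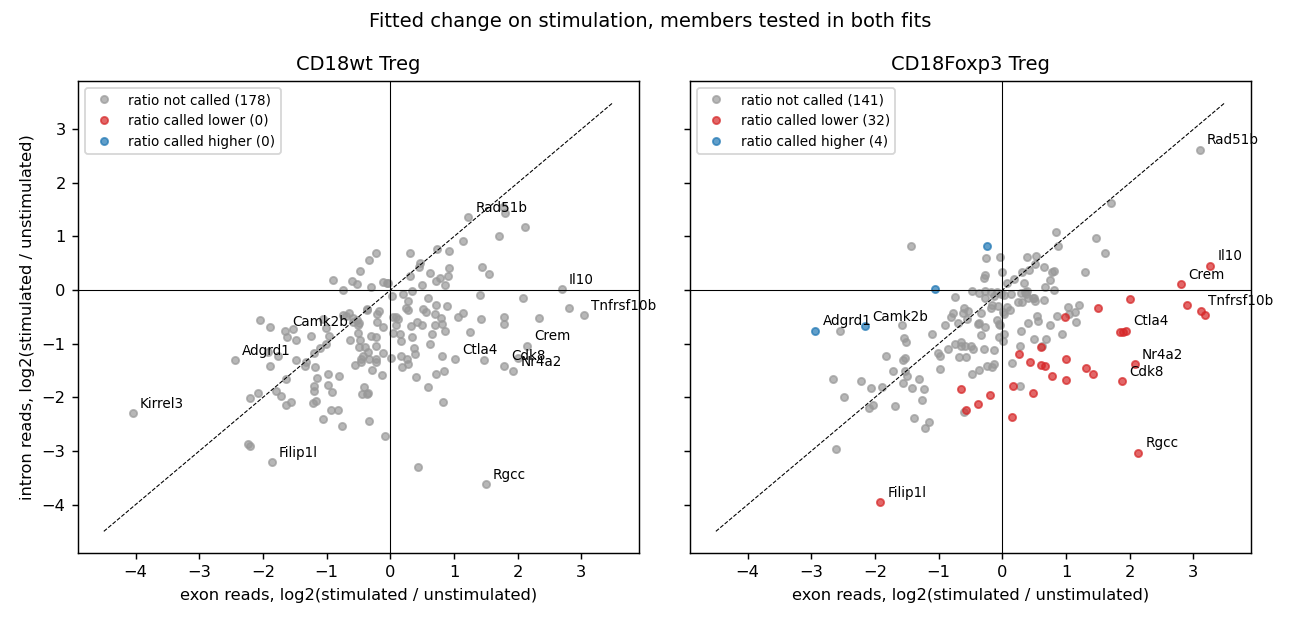
Each point is a member tested in both fits, placed by its log2 change on stimulation in exon reads (x axis) and intron reads (y axis) in CD18wt (left) and CD18Foxp3 Treg (right). The dashed line marks equal change, and colours mark the call of the intron to exon ratio, which was lower in 32 and higher in 4 members in CD18Foxp3 Treg and passed for none in CD18wt Treg.

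The second comparison asked whether intron and exon reads of a gene changed alike, by testing the intron to exon ratio within each gene. In CD18Foxp3 Treg, 186 of the 200 genes ranked in CD18wt libraries were tested, and the ratio fell in 32 and rose in 4, whereas over all genes it fell in 3.67% and rose in 9.49%, and over the protein-coding genes with the minimum of reads in 4.47% and 11.4%. In CD18wt Treg no member passed by edgeR, with 37 of 184 at an unadjusted p under 0.05, and no gene of the whole table passed either (0% in each direction). A missed threshold there does not show that the ratio was unchanged. The share of all genes at that unadjusted p is not given here, and the same libraries chose the members. The count of 37 is therefore not read as a change. With exon and intron reads scaled separately, 51 members fell and 7 rose in CD18Foxp3 (7.89% and 6.05% of all genes), and 12 fell and none rose in CD18wt Treg (0.758% and 0.406%). These are counts of the members, which the same unstimulated libraries chose by their share, so they are a description and not a test.

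The intron share could also be compared library by library, as a description, since the unstimulated libraries chose the members. The share of 49 members was lower in every stimulated than in every unstimulated CD18wt library and of 21 higher, where 4.8% and 19.9% of the 9328 genes were so. In CD18Foxp3 Treg the numbers were 58 and 27, against 12% and 31.1% of the genes. In 34 members the share was lower without overlap in both genotypes, and in 13 it was higher, against 3.12% and 13.3% of the 9328 genes.

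**Figure D5:**
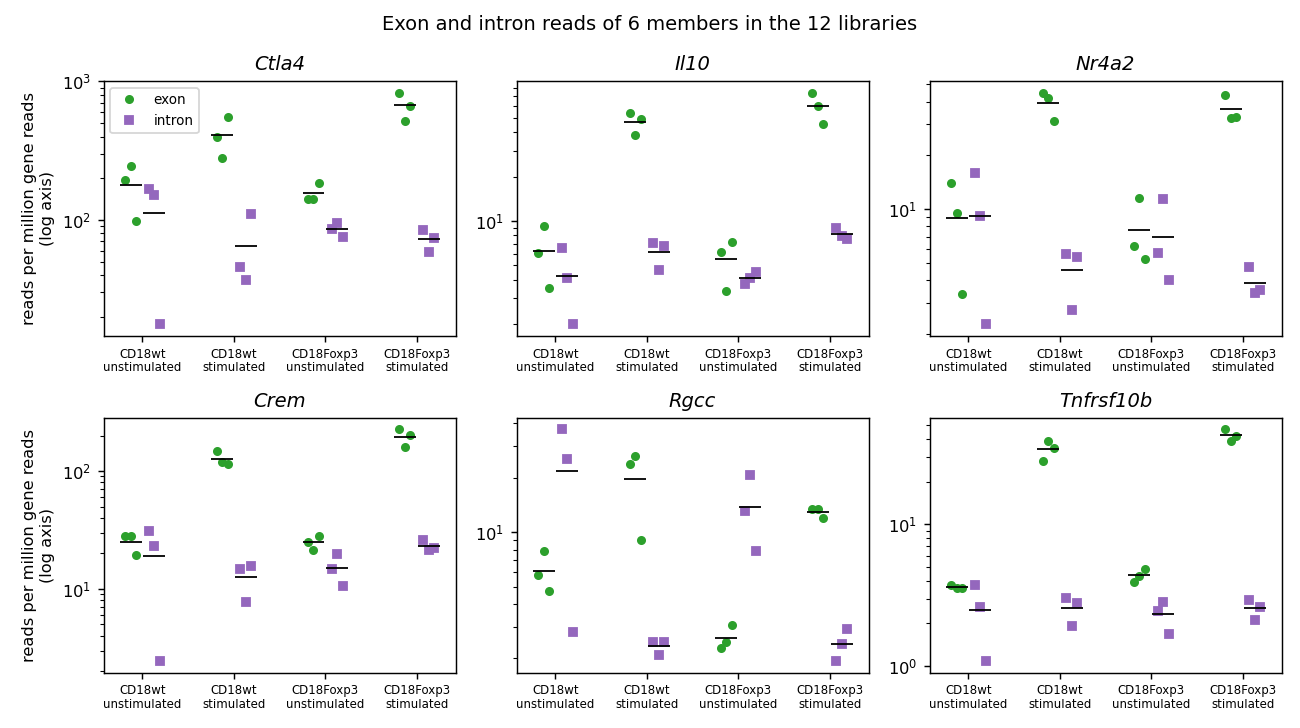
Exon reads (circles) and intron reads (squares) of 6 members in RPM on a log axis, in each of the 12 libraries by group, with lines at the means. Mean exon reads were higher after stimulation in all 6 genes, whereas intron reads were lower in some and higher in others, as in CD18Foxp3 Treg for Crem and Il10.

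Rgcc, a regulator of the cell cycle, had the largest fall in intron reads that passed in CD18wt Treg (chromosome 14, 79288756 to 79301645, minus strand). Its intron RPM were 37, 25.4 and 2.81 in unstimulated and 2.45, 2.09 and 2.46 in stimulated CD18wt Treg, and 13, 20.7 and 7.9 against 1.94, 2.4 and 2.93 in CD18Foxp3 Treg. Its exon reads went the other way, from 5.82, 7.83 and 4.71 to 23.8, 26.2 and 9.09 and from 2.3, 2.48 and 3.05 to 13.4, 13.3 and 11.9. Neither measure overlapped between conditions in either genotype. The ratio fell by 4.73 ± 0.47 on the log2 scale in CD18Foxp3 Treg (adjusted p = 1e-06). The low value of 2.81 belonged to CD18wt unstimulated replicate 3, and without that library the log2 change of intron reads in CD18wt Treg was −4.11 ± 0.33 in place of −3.62 ± 0.63, while the rise in exon reads no longer passed (adjusted p = 0.037 in place of 0.0058).

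Among 38 genes with enough reads of a list of activation-induced genes, 4 were members, namely Ctla4, Il10, Nr4a2 and Ccnd3. Of the whole list, 25 rose in exon reads and none fell in CD18wt Treg, and 27 rose and 1 fell in CD18Foxp3 Treg, against 18.7% and 14.9% of all genes in the former and 20.9% and 17.6% in the latter. Its intron to exon ratio fell in 17 genes and rose in 4 in CD18Foxp3 Treg, against 3.67% and 9.49% of all genes. The list names genes known for this response. Members of the list are given first.

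Ctla4, the last gene inside the boundary, had 193, 244 and 99 exon RPM in unstimulated and 398, 280 and 556 in stimulated CD18wt Treg. In CD18Foxp3 Treg it had 143, 142 and 184 against 829, 521 and 659. Its intron reads were 167, 152 and 17.7 against 45.8, 36.8 and 111 in CD18wt and 86.2, 95.4 and 74.9 against 84.2, 58.8 and 74.6 in CD18Foxp3 Treg, and overlapped between conditions in both. In CD18Foxp3 Treg exon reads rose (log2 change 1.94 ± 0.18, adjusted p = 2.9e-05), intron reads fell (−0.76 ± 0.15, adjusted p = 6.4e-05) and the ratio fell by 2.33 ± 0.22 (adjusted p = 6.1e-07). In CD18wt Treg the log2 changes were 1.02 ± 0.36 in exon and −1.29 ± 0.53 in intron reads, and without CD18wt unstimulated replicate 3, where intron reads were 17.7 RPM, 0.74 ± 0.25 and −1.76 ± 0.34. On the exon size scale the change in intron reads in CD18Foxp3 Treg was −0.40 and no longer passed. An annotated pseudogene lies in a Ctla4 intron, and its part in these reads was not tested. For Ctla4, Crem, Tnfrsf10b and Fhit no p is given in CD18wt Treg, since they were not among the 200 genes ranked in the CD18Foxp3 libraries.

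Il10 had 6.04, 9.31 and 3.54 exon RPM in unstimulated and 54, 38 and 48.8 in stimulated CD18wt Treg, and 6.15, 3.35 and 7.17 against 74.1, 60.6 and 45.7 in CD18Foxp3 Treg. Every stimulated library was higher. Its intron reads were 6.54, 4.1 and 1.99 against 7.13, 4.64 and 6.74 in CD18wt Treg and 3.75, 4.1 and 4.51 against 8.99, 7.95 and 7.5 in CD18Foxp3 Treg, so they overlapped in the former and not in the latter. Exon reads rose in both genotypes, with log2 changes of 2.69 ± 0.27 (adjusted p = 9.3e-06) and 3.26 ± 0.28 (adjusted p = 1.8e-05). The change in intron reads passed in neither (0.02 ± 0.36, adjusted p = 0.98, and 0.46 ± 0.24, adjusted p = 0.12). These intron fits were scaled on intron reads, whereas RPM are per gene reads, so the fitted change and the RPM differ in scale. The share of Il10 went from 39.5% ± 11.1 to 11.6% ± 0.631 in CD18wt and from 43.8% ± 9.67 to 12.2% ± 1.72 in CD18Foxp3 Treg (SD, n = 3).

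Nr4a2, an orphan nuclear receptor induced early by antigen receptor signals, had 14, 9.52 and 3.35 exon RPM before and 44.9, 41.6 and 31.1 after stimulation in CD18wt Treg. In CD18Foxp3 Treg it had 6.2, 11.5 and 5.25 against 43.5, 32.2 and 32.8. The share fell from 47.6% ± 6.66 to 10.7% ± 4.38 and from 46.9% ± 3.35 to 9.68% ± 0.158, without overlap in either genotype. Exon reads rose in both (log2 changes 1.93 ± 0.43, adjusted p = 0.0071, and 2.08 ± 0.29, adjusted p = 0.00029), and the ratio fell by 3.05 ± 0.33 in CD18Foxp3 Treg (adjusted p = 3e-06).

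Ccnd3 encodes cyclin D3, and its exon reads did not pass in either genotype (159 ± 42.2 and 142 ± 26.8 RPM in CD18wt, 173 ± 3.26 and 131 ± 31.1 in CD18Foxp3 Treg). Its intron reads fell from 216, 194 and 247 to 66.8, 60.4 and 57 RPM in CD18wt and from 219, 160 and 171 to 58.9, 64.1 and 46.2 in CD18Foxp3 Treg. The log2 changes were −2.44 ± 0.39 (adjusted p = 0.00053) and −2.23 ± 0.15 (adjusted p = 2.1e-19).

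Other members had more exon reads and a lower share after stimulation. Crem, a cyclic AMP responsive transcription factor, went from 28, 28.2 and 19.5 to 148, 119 and 115 exon RPM in CD18wt Treg and from 25.1, 21.5 and 28.1 to 226, 161 and 202 in CD18Foxp3 Treg (log2 change in the latter 2.81 ± 0.16, adjusted p = 2.9e-06). Its intron reads were 30.9, 23.2 and 2.45 against 14.9, 7.7 and 15.7 in CD18wt Treg, the value of 2.45 again from replicate 3. Tnfrsf10b, a receptor for the death ligand TRAIL, had 3.9, 4.34 and 4.85 exon RPM before and 46.8, 39 and 41.9 after stimulation in CD18Foxp3 Treg (log2 change 3.12 ± 0.16, adjusted p = 1.9e-06). Its intron reads stayed between 1.09 and 3.71 RPM in all 12 libraries.

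Cdk8, a kinase of the Mediator complex, rose in exon reads from 16.6 ± 3.08 to 64.9 ± 4.77 RPM in CD18wt Treg (log2 change 1.78 ± 0.16, adjusted p = 1.9e-06) and from 16.1 ± 1.88 to 66.2 ± 4.5 in CD18Foxp3 Treg (1.88 ± 0.13, adjusted p = 6.8e-06). Its intron reads fell in CD18Foxp3 Treg (−1.69 ± 0.18, adjusted p = 5.2e-09) and were 111, 98.5 and 220 against 79.96, 115 and 45.7 in CD18wt Treg, which overlap. An annotated pseudogene lies in a Cdk8 intron, and its part in these reads was not tested. Tg, the thyroglobulin gene, rose in exon reads from 2.28 ± 0.714 to 13.1 ± 2.74 RPM in CD18wt Treg (log2 change 2.33 ± 0.31, adjusted p = 4.3e-05). It encloses Sla, an adaptor of antigen receptor signalling on the opposite strand with 36300 pooled gene reads, and with the strand not stated the reads of the 2 genes may not be separable.

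Coro2a, a coronin, and Jarid2, a subunit of Polycomb complex 2, are members with many reads. Coro2a had 297, 193 and 142 intron RPM before and 97.9, 76.5 and 83 after stimulation in CD18wt Treg, and 222, 276 and 244 against 141, 138 and 142 in CD18Foxp3 Treg (log2 changes −1.82 ± 0.35, adjusted p = 0.0021, and −1.34 ± 0.14, adjusted p = 5.4e-12). Its exon reads rose in CD18wt Treg (0.59 ± 0.14, adjusted p = 0.0039) and changed by 0.43 ± 0.10 in CD18Foxp3 Treg, under the fold threshold. Without CD18wt unstimulated replicate 3 the rise in CD18wt Treg was 0.50 ± 0.15 and did not pass. In Jarid2 the share fell from 73.9% ± 3.56 to 47.6% ± 4.29 in CD18Foxp3 Treg, and the intron fall passed there (−1.39 ± 0.18, adjusted p = 2e-07) but not in CD18wt Treg (−1.43 ± 0.53, adjusted p = 0.075). Without CD18wt unstimulated replicate 3 the intron change of Jarid2 in CD18wt Treg was −0.60 ± 0.37 and did not pass. Only 51.2% of Jarid2 intron reads in the pooled unstimulated libraries were uniquely placed.

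Exon and intron reads fell together in other members. In CD18wt Treg both passed for 17, among them Chd9, a chromatin remodeller, Prkcb, protein kinase C beta, and Nlrp1b, an inflammasome sensor. These were 17 of the 178 members tested in both measures (9.55%), against 2.97% of 8554 genes and 3.14% of the protein-coding genes with the minimum of reads. In CD18Foxp3 Treg both passed for 27 of 177 (15.3%), against 7.42% of 9064 genes and 7.87% of the protein-coding ones. The same unstimulated libraries chose the members, and more of the members fell in intron reads, so these joint counts are a description and not a separate result. Chd9 had 196 ± 43.3 and 52.9 ± 9.56 intron RPM in CD18wt Treg (log2 change −2.41 ± 0.36, adjusted p = 0.00032), and its exon reads were 114 ± 24.6 and 62.5 ± 9.85 (−1.06 ± 0.16, adjusted p = 0.00015). Of Chd9 intron reads in the pooled unstimulated libraries, 69.3% were uniquely placed. Prkcb kept its share, at 53.9% ± 2.48 and 52.7% ± 3.79 in CD18wt and 52.7% ± 0.309 and 55.9% ± 5.36 in CD18Foxp3 Treg. Prkcb introns hold 2 annotated pseudogenes. One of them is Gm14388, with 73.7% of its 59-base words in Acp1, a phosphatase. Acp1 had 41.5 ± 2.22 exon RPM without and 82.8 ± 12.9 with stimulation in CD18wt Treg. The part of this sequence in the Prkcb intron reads was not tested.

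Maff, a small Maf transcription factor, lost intron reads, from 15.2, 13.2 and 1.99 to 0.396, 1.98 and 1.37 RPM in CD18wt Treg (log2 change −3.31 ± 0.68, adjusted p = 0.0072). In CD18Foxp3 Treg the values were 6.45, 8.69 and 8.29 against 1.29, 2.12 and 3.11 (−2.36 ± 0.29, adjusted p = 2e-09), while its exon reads passed in neither genotype. Rab3ip, an exchange factor for Rab8, fell from 37.5, 36.9 and 37.5 to 9.78, 11.3 and 8.17 intron RPM in CD18Foxp3 Treg (−2.47 ± 0.18, adjusted p = 4.4e-18). Ston1, an endocytic adaptor, varied widely between replicates, with 66.4, 18 and 8.43 exon RPM in unstimulated CD18wt Treg, and passed in exon reads in CD18Foxp3 Treg (−2.61 ± 0.42, adjusted p = 0.00067) but not in CD18wt Treg (−2.23 ± 1.03, adjusted p = 0.15).

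Filip1l, which encodes a filamin A interacting protein, fell in intron reads in CD18Foxp3 Treg, from 161, 188 and 221 to 16.7, 22.4 and 14 RPM (log2 change −3.96 ± 0.17, adjusted p = 5e-27), but 0.0% of these reads were unique and Cmss1 covers the same bases on the other strand. Cmss1, a small ribosomal subunit factor, rose in exon reads there, from 7.94 ± 1.43 to 25.3 ± 3.22 RPM (log2 change 1.5 ± 0.19, adjusted p = 0.00015). Nacad, a protein of the nascent polypeptide-associated complex family, fell from 3, 3.16 and 4.97 to 0.397, 1.2 and 1.1 intron RPM in CD18Foxp3 Treg (−2.58 ± 0.38, adjusted p = 1.9e-07), with no pseudogene or other read gene in its introns.

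Dnah7a and Dnah7b, axonemal dynein heavy chains, are paralogs that share reads, with 5.1% and 27.6% of intron reads uniquely placed, so the split between them is uncertain. Dnah7a had 36, 47.3 and 29 exon RPM in unstimulated and 128, 194 and 115 in stimulated CD18wt Treg, and 21.5, 24.3 and 14 against 179, 163 and 157 in CD18Foxp3 Treg. Every stimulated library was higher, and the log2 changes were 1.78 ± 0.23 (adjusted p = 9.5e-05) and 2.89 ± 0.20 (adjusted p = 5.9e-06). Its intron reads passed in neither genotype, at 39.1 ± 4.53 and 37.2 ± 2.89 RPM in CD18wt and 32.8 ± 3.61 and 39.1 ± 5.4 in CD18Foxp3 Treg, so its share went from 62.7% ± 6.05 to 19% ± 1.46 in the latter.

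Few members rose in intron reads. Rad51b, a recombination protein, had 6.76, 3.36 and 3.72 intron RPM in unstimulated and 21.9, 13.7 and 17.5 in stimulated CD18wt Treg, and 3.8, 6.02 and 4.12 against 42.6, 32.5 and 46.8 in CD18Foxp3 Treg. The log2 changes were 1.36 ± 0.33 (adjusted p = 0.0082) and 2.62 ± 0.21 (adjusted p = 8.4e-15), and its share stayed between 64.1% and 85.9% in all 12 libraries. Slc20a2, a phosphate transporter, rose in exon reads from 4.24 ± 0.255 to 16.4 ± 1.2 RPM in CD18wt Treg (1.77 ± 0.23, adjusted p = 4.2e-05) and in intron reads from 2.44 ± 1.1 to 10.7 ± 5.17 (1.56 ± 0.36, adjusted p = 0.0062). Cyb5d1, a cytochrome b5 domain protein, rose in both measures in CD18Foxp3 Treg, from 6.43 ± 0.408 to 20 ± 3.17 exon RPM (1.47 ± 0.18, adjusted p = 0.00011) and from 7.23 ± 0.191 to 20.3 ± 4.16 intron RPM (0.98 ± 0.20, adjusted p = 6.2e-05). Its share stayed between 42.3% and 55.2% in all 12 libraries.

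The ratio of intron to exon reads rose in 4 members in CD18Foxp3 Treg, which were Adgrd1, Camk2b, A630001G21Rik and Kansl1l. In Adgrd1 exon reads fell from 1.9, 2.23 and 2.31 to 0.447, 0.109 and 0.366 RPM, near the level of a few reads, while intron reads were 4.44 ± 0.644 and 3.76 ± 0.142. A630001G21Rik, a gene model, did not pass in exon reads (−0.24 ± 0.18, adjusted p = 0.28) and rose in intron reads (0.83 ± 0.19, adjusted p = 0.00034), and its share went from 41.4% ± 8.17 to 66.4% ± 1.14. Kansl1l was not among the 200 genes ranked in CD18wt libraries, so its share of 39.7% ± 7.02 before and 64.2% ± 1.84 after stimulation is given without a test.

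Very long genes known from neural and muscle tissue were a further list. Only 5 of its 39 genes in the table had enough reads, and 4 of these were members, namely Gphn, Wwox, Immp2l and Fhit. Gphn, a scaffold of inhibitory synapses with a second role in molybdenum cofactor synthesis, rose in exon reads from 29.6, 22.6 and 16.9 to 39.4, 45.7 and 52.4 RPM in CD18wt Treg (log2 change 0.81 ± 0.20, adjusted p = 0.0041). In CD18Foxp3 Treg it went from 23.5, 27.2 and 18.8 to 61.8, 45.4 and 48.3 (0.99 ± 0.18, adjusted p = 0.0014), and intron reads fell (−1.29 ± 0.16, adjusted p = 1.3e-09). Without CD18wt unstimulated replicate 3 the exon change in CD18wt Treg was 0.65 ± 0.19 and did not pass. Introns of Gphn hold 2 annotated pseudogenes, whose part in its intron reads was not tested. Wwox and Fhit, both at common fragile sites, and Immp2l, a mitochondrial protease subunit, passed in neither measure and neither genotype.

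Lists of other T cell genes held few members. None of 36 T cell transcription regulators with enough reads was a member, and neither was any of 42 splicing factors and genes known for detained introns. Of 41 T cell signalling genes 1 was a member, Camk4, a calcium and calmodulin dependent kinase. Camk4 had intron shares of 46.7% ± 4.68 and 39.6% ± 5.3 in CD18wt and 47.2% ± 1.87 and 39.6% ± 8.47 in CD18Foxp3 Treg. Its intron reads fell in CD18Foxp3 Treg (−1.09 ± 0.16, adjusted p = 8.4e-08). The median shares of these lists were 7.97%, 4.76% and 9.35%. Of 470 zinc finger genes and gene models with Rik or Gm names, 36 (7.66%) were members, against 2.14% of all genes examined.

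The third comparison asked whether the genotypes differed. No member was called by edgeR in exon reads, intron reads or their ratio between CD18Foxp3 and CD18wt Treg, either without or with stimulation. In unstimulated Treg 0.0507% of all genes were higher and 0.0845% lower in exon reads in CD18Foxp3 Treg (0.0645% and 0.0752% of the protein-coding genes with the minimum of reads), and none passed in intron reads or the ratio (0% in each direction). In stimulated Treg none passed in any measure. At an unadjusted p under 0.05 stood 17 of 177 members in exon reads, 17 of 200 in intron reads and 2 of 185 in the ratio without stimulation, and 17 of 174, 17 of 200 and 2 of 183 with it. The share of all genes at that p is not given here. These counts, and those of the response below, are therefore not read as an excess. DESeq2 called 4 members in exon reads in unstimulated Treg, of which Gm12185 was higher and Dnah7a, Kirrel3 and Rgcc were lower in CD18Foxp3 Treg, against 0.287% of all genes higher and 0.44% lower by DESeq2. In intron reads it called 1 member, Kirrel3, which was lower and the only gene of the table called (0.0116%). In stimulated Treg DESeq2 called no member (0.142% of all genes higher and 0.0419% lower in exon reads, 0% in intron reads). A difference between the genotypes in their response to stimulation passed for none of 179 members in exon and none of 200 in intron reads by edgeR or DESeq2 (9 and 9 at an unadjusted p under 0.05 by edgeR, 10 and 8 by DESeq2). Over the whole table edgeR called no gene (0% in each direction), and DESeq2 called 1, lower in exon reads (0.00791%). Without CD18wt unstimulated replicate 3, edgeR called Ctla4 lower in intron reads in unstimulated CD18Foxp3 Treg (log2 change −0.90). It also called Gm12185 and Gm37988 higher in exon reads there (1.01 and 8.92), with 2.55% of Gm37988 exon reads uniquely placed. The share of all genes called in that fit is not given here.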

How the data were processed

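mRNA was poly(A)-selected from the 12 libraries and sequenced as single reads of 59 bases after 15 PCR cycles. The authors mapped reads to GRCm38 in CLC Genomics Workbench with default settings (whether strand was used is not given in the sources used here) and deposited, per gene, whole-number counts of exon, intron, unique and total reads. Their normalized TPM columns were not used, and no column of values lacked a sample. Depth was 11031565 to 20138261 gene reads, and values near a few reads are the least precise.

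Groups followed the labels. The replicates are labelled biological, and p-values measure only the spread between these libraries. Exon counts, intron counts and, with 1 term per library, the intron to exon ratio were fitted over all genes by robust edgeR quasi-likelihood tests (edgeR 4.0.16, R 4.3.3) with TMM scaling, a count minimum of 10 and Benjamini-Hochberg adjustment. Each comparison was fitted on the libraries of its 2 groups only, and the interaction of genotype and stimulation on all 12. The ratio test needed 10 or more exon and 10 or more intron reads summed over its libraries. Calls required a 1.5-fold change or more, and an adjusted p no higher than 0.01. Errors of log2 changes are SE. The fits were tested on simulated data.

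Because the unstimulated libraries chose the members, each stimulation test was also counted over 200 genes ranked in the 3 unstimulated libraries of the other genotype alone, with at least 250 gene reads. Adjusted p-values are printed for genes in that ranking. The members and gene lists were chosen with earlier results of these data known. Named genes were to be those with the highest shares, at the boundary, with the most reads, with the largest changes that passed without overlap, with a genotype call, on a list, and Itgb2, with about 40 to be described. Cmss1, Patl2, Mef2b, Gm12185 and Gm37988 fall outside this rule and were chosen after their values were seen. Annotation came from GENCODE M21 and promoters from RefSeq (GRCm38.p6). Alternatives were DESeq2 1.42.0, no count filter, an adjusted p of 0.05, a replicate block, other scaling, unique reads, a minimum of 1000 reads and leaving out libraries. Tables were made in Python 3.11.15 with pandas 2.3.3 and numpy 2.4.6. Some items are not reported here.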

Additional observations from a re-analysis of the deposited data

Results flagged for a closer look

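Farp2, a guanine nucleotide exchange factor and a member, had intron shares that moved in opposite directions in the 2 genotypes. In CD18wt Treg the shares were 73.7%, 77% and 73.5% without and 71.8%, 66% and 72.7% with stimulation, so every stimulated library was lower. In CD18Foxp3 Treg they were 70.2%, 75.2% and 72.9% against 82.9%, 80.9% and 76.1%, so every stimulated library was higher. The means were 74.7% ± 1.94 and 70.1% ± 3.66 in CD18wt and 72.8% ± 2.47 and 80% ± 3.51 in CD18Foxp3 Treg (SD, n = 3), and the change in CD18Foxp3 Treg exceeded that in CD18wt Treg by 11.8 percentage points. This difference in the share was not tested, and the intron to exon ratio did not pass in either genotype by edgeR. Of the 9328 genes, 4.8% had a lower share without overlap in CD18wt Treg, and 31.1% a higher one in CD18Foxp3 Treg. The share of genes that did both is not given here, so the pattern of Farp2 is not read as unusual. Another read gene, with 4826 pooled gene reads, lies in a Farp2 intron on the opposite strand. The part of that gene in the Farp2 intron reads was not tested.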

How the results depend on the processing

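Intron calls in CD18wt Treg were the least stable result, at 51 members. They became 80 at an adjusted p of 0.05, 77 without the count filter, 11 with a replicate block, 10 scaled by exon library sizes and 9 to 57 when 1 library was left out. The ratio calls in CD18wt Treg (none) became 12 with separate scaling, 9 without the 2 libraries of lowest intron share and 0 to 1 with 1 library left out. In CD18Foxp3 Treg the 36 ratio calls became 58 with separate scaling and 27 to 30 with 1 library left out. The exon calls of 54 in CD18wt and 64 in CD18Foxp3 Treg became 36 to 45 and 47 to 59, and the 107 intron calls in CD18Foxp3 Treg became 96 to 106. Between genotypes without stimulation, where edgeR called none, exon calls became 4 with DESeq2, 4 without the filter, 1 with a replicate block, 2 without the 2 libraries and 0 to 2 with 1 library left out. Intron calls there became 1 with DESeq2, 1 without the filter, 1 without the 2 libraries and 0 to 1 with 1 library left out. With stimulation, exon calls became 3 without the filter, and intron calls 1 without the filter, 1 with a replicate block and 0 to 1 with 1 library left out. The exon interaction became 1 without the filter. The members' median share of 53.7% became 50.2% on unique reads, 43.8% with at least 1000 reads and 53.6% to 54.9% with 1 library left out.

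Of the results for named genes, 485 stayed on their side of the threshold and 43 no longer passed under the other alternatives, 477 stayed and 111 no longer passed with 1 library left out, and none reversed. Same-numbered libraries did not deviate together throughout (correlations of −0.132 to 0.147 in exon and −0.143 to 0.122 in intron reads over the stimulation and genotype comparisons). Between unstimulated and stimulated CD18Foxp3 Treg, however, same-numbered libraries correlated at 0.0696 to 0.147 in exon and 0.0276 to 0.0395 in intron reads. Differently numbered ones were lower there, at −0.124 to −0.0213 and −0.0377 to 0.00576. Whether the numbers pair the samples is therefore not settled, and neither is the meaning of calls lost under the replicate block. Leaving out the 2 libraries was chosen after seeing the data. A count of A and T runs within introns was not run, since no genome was used here. With 3 libraries a group, depth limits members near the minimum of 10 reads.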
